A study of Oryza sativa with 36 samples.

Results

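BHLH063, OsVIT1.2 and MT2B are 3 probe sets of the Affymetrix rice array, of 57258 rice probe sets in all, and stand for a regulator of iron uptake genes, a vacuolar iron transporter and a metallothionein. They were chosen by name, after their intensities in these arrays were known, so their levels and drought changes are given as a description without a test. All 36 arrays hold RNA of DK151, 1 drought tolerant rice line bred from IR64. The drought groups covered tillering (leaves, roots), panicle elongation (leaves, roots) and booting (leaves, young panicles), each taken when draining of the culture solution had lowered leaf relative water content to 65 to 75%. By the methods, stress took a day longer to show at tillering and panicle elongation than at booting. The plants stood in a split-plot design with blocks, and the labels do not give the block of an array. The control groups were the same tissues and stages of DK151 plants that stayed watered with nutrient solution. Each of the 12 groups had 3 arrays, which are called replicates 1 to 3, and the methods count them as biological replicates.

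Iron is needed for photosynthesis and respiration and is harmful when free in the cell. Grasses such as rice take it up from soil with deoxymugineic acid, a chelator made from nicotianamine, and rice roots also take up ferrous iron directly. Basic helix-loop-helix regulators set the activity of the uptake genes, vacuolar transporters store surplus iron, and metallothioneins, small proteins rich in cysteine, bind zinc, copper and other metals and scavenge reactive oxygen.

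The names came from a RefSeq gene table. It places BHLH063, also named OsbHLH063, on chromosome 3 and gives it the synonyms IRO3 and OsIRO2. These synonyms are used elsewhere for different rice regulators, OsIRO2 for an activator of iron uptake genes and IRO3 for a repressor. The table does not say which is meant here. Both names led to this same gene, so the other regulator was not read. OsVIT1.2 is also called OsVIT2, and MT2B is also called RICMT and OsMT2c and carries the identifier Os01g0974200 in the study's gene tables. The probe sets are Os.9216.1.S1_at for BHLH063, Os.9660.1.S1_at for OsVIT1.2 and Os.12410.1.S1_a_at for MT2B, which is the brightest of 4 probe sets of that gene.

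The values are linear intensities in arbitrary units, and array medians lay between 55.0 and 63.9. Mean correlations with the other replicates of a group were 0.944 to 0.992, the lowest in replicate 2 of control leaves at panicle elongation. The silicon transporter LSI2, a root marker, was between 358 and 2744 in roots and between 12.4 and 32.8 in leaves. The floral regulators MADS1, MADS6, MADS7 and MADS8 had medians of 4476, 1327, 1667 and 2454 in young panicles, against 77.6, 25.8, 32.9 and 40.7 in leaves, while MADS3 and MADS13 did not set panicles apart. Leaf markers were also present in panicles, with a median of 8564 for the chlorophyll-binding protein CAB2R. In roots CAB2R lay between 27.5 and 1274. In bulk tissue, fewer cells of a type and less RNA per cell cannot be told apart.

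BHLH063 was lower in drought than in control plants in all leaf and root comparisons and higher in young panicles. In leaves at tillering the drought arrays held 174, 150.4 and 170.4, against 945, 1519 and 2744 in control arrays. The highest drought value thus lay far below the lowest control value, although the control arrays themselves differed widely. The log2 difference of drought minus control was -3.26 ± 0.36 (SE of the limma model, n = 3 arrays each), or 9.59-fold lower under drought. This SE, also given with later log2 differences, is pooled over all groups. It is therefore the same in every drought comparison of a probe set and does not show the spread of the arrays compared. For BHLH063 the SD of log2 intensity was 0.03 in control young panicles and 1.06 in control leaves at booting. In leaves at panicle elongation the intensities were 511, 339 and 528 under drought and 1102, 1579 and 1115 in control, a difference of -1.47 ± 0.36 on the log2 scale. The groups did not overlap, and the drought leaves of this stage kept more BHLH063 signal than the drought leaves of the other stages. In leaves at booting drought arrays held 134, 137 and 154 and control arrays 349, 1245 and 347. Control replicate 2 stood well above the other control arrays there. The log2 difference was -1.92 ± 0.36 with it and -1.30 without it.

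In roots at tillering BHLH063 had 329, 346 and 349 in drought arrays and 1156, 1737 and 1970.3 in control arrays. The drought roots were nearly equal to each other and all below the control roots. The log2 difference was -2.21 ± 0.36, which is 4.64-fold. In roots at panicle elongation the drought arrays held 289, 298 and 282, against 1321, 1502 and 603 in control, a log2 difference of -1.87 ± 0.36. Control replicate 3 was the lowest of its group. In that array the small subunit of Rubisco, RBCS, read 4328, against 109 and 1201 in the other control arrays. Without that array the log2 difference was -2.28. RBCS lay between 75.2 and 86.1 in drought roots at panicle elongation. At tillering it read 351, 1764 and 248 in drought roots, against 972 to 1017 in control roots. CAB2R read 90.8, 598 and 56.0 in drought roots at tillering, against 189 to 260 in control roots. The part of leaf RNA in the root values of BHLH063 and of the iron genes given further on was not tested. Both root markers measured, the silicon transporters LSI1 and LSI2, read lower in every drought root array than in the control roots of its stage. LSI1 lay between 4239 and 4621 in drought roots at tillering, against 6903 to 8202 in control roots, and between 4884 and 5052 against 6510 to 10234 at panicle elongation. LSI2 lay between 746 and 955 against 1271 to 1811, and between 358 and 668 against 1014 to 2744 at the same stages. Neither was at 0, and their part in the root values of BHLH063 and of the iron genes given further on was not tested.

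Young panicles ran the other way. BHLH063 had 263, 324 and 261 in drought panicles and 91.9, 88.7 and 88.3 in control panicles. Control panicles held the lowest level of all 12 groups and varied least. The log2 difference was 1.65 ± 0.36, or 3.14-fold higher under drought. Set against leaves of the same stage, the drought change differed by -3.57 ± 0.51 on the log2 scale (leaves minus panicles).

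OsVIT1.2, which moves iron from the cytosol into the vacuole, was higher on average under drought in every tissue, and by far the most in leaves. In leaves at tillering the drought arrays held 1611, 1837 and 1243, against 45.3, 34.2 and 37.1 in control arrays. Control leaves of this stage had the lowest OsVIT1.2 mean of all 12 groups. All 3 control values lay below the medians of their arrays, and only 34.8% of all probe sets had a lower mean there. The fold below thus rests on a weak control signal. The log2 difference was 5.32 ± 0.52, or 40.0-fold. In leaves at panicle elongation the intensities were 432, 947 and 509.9 under drought and 46.0, 125 and 57.2 in control, a log2 difference of 3.10 ± 0.52. Replicate 2 was the highest array on both sides, and the groups stayed apart. In leaves at booting drought arrays had 364, 118 and 328 and control arrays 34.6, 124 and 40.0. The groups overlapped, since replicate 2 was the lowest drought array and the highest control array. The other control values at booting were also below the medians of their arrays. The log2 difference of 2.12 ± 0.52 became 2.70 without control replicate 2 and 3.03 as a difference of medians.

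Roots held OsVIT1.2 at high levels with and without drought. In roots at tillering the drought arrays had 2238, 2352 and 1947 and the control arrays 1916, 1006 and 778, a log2 difference of 0.92 ± 0.52. In roots at panicle elongation drought gave 1615, 1992 and 1853 and control 1538, 895 and 974, a difference of 0.72 ± 0.52. Drought arrays were above all control arrays at both stages, by margins that were small beside the spread of the control roots. In young panicles the intensities were 405, 923 and 418 under drought and 893, 195 and 188 in control. Control replicate 1 lay above 2 of the 3 drought arrays, so the groups overlapped. The log2 difference was 0.75 ± 0.52 with this array and 1.49 without it. The drought change in leaves exceeded that in roots of the same stage by 4.40 ± 0.74 at tillering and by 2.39 ± 0.74 at panicle elongation, both on the log2 scale. VIT1, the other vacuolar iron transporter measured, ran against OsVIT1.2 in leaves, with limma log2 changes of -0.96, -2.07 and -1.37 from tillering to booting (adjusted p = 2.1e-05, 1.3e-11 and 1.2e-07), none of them 5-fold.

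MT2B was lower under drought in leaves and differed less in roots and panicles. In leaves at tillering the drought arrays held 1127, 560.2 and 1205, against 6501, 6812 and 5798 in control arrays, a log2 difference of -2.80 ± 0.42. In leaves at panicle elongation drought gave 299, 1889 and 377 and control 5224, 6395 and 5303, a difference of -3.23 ± 0.42. Drought replicate 2 was several times above the other drought arrays, and without it the difference was -4.06. In leaves at booting the intensities were 127, 227 and 83.9 under drought and 4607, 2175 and 4049 in control. This was the lowest group of all 12, and the log2 difference of -4.68 ± 0.42, or 25.6-fold, was the most negative of the 3 probe sets. All 3 leaf markers, RBCS, CAB2R and the Rubisco activase RCA, read lower in every drought leaf array than in the control leaves of its stage. RBCS read 635, 991 and 939.7 in drought leaves at panicle elongation, against 14424, 14705 and 14349 in control leaves, and 8229, 11338 and 10834 against 14085, 13991 and 14186 at booting. CAB2R lay between 6777 and 8962 in drought leaves at tillering, against 12364 to 12843 in control leaves, between 180 and 435 against 11736 to 12827 at panicle elongation, and between 1051 and 3068 against 10893 to 11745 at booting. RCA lay between 6757 and 7165 against 7332 to 8366, between 2732 and 5139 against 7309 to 12607, and between 1514 and 1753 against 5385 to 5802 at the same stages. None of the 3 was at 0, and their part in the leaf values of MT2B, BHLH063 and OsVIT1.2 was not tested.

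In roots at tillering MT2B had 5694, 5652 and 4504 in drought arrays and 8823, 8922 and 6984 in control arrays, a log2 difference of -0.64 ± 0.42. In roots at panicle elongation the arrays held 7538, 7691 and 6596 under drought and 8490.0, 7234 and 8428 in control and overlapped, with a difference of -0.15 ± 0.42. Young panicles had 5473, 6293 and 5909.8 under drought and 9246, 7001 and 6768 in control, a difference of -0.37 ± 0.42. All root and panicle arrays read 4504 or more, above every drought leaf array. The drought change in leaves minus that in roots was -2.16 ± 0.59 for the tillering stage and -3.09 ± 0.59 for panicle elongation, and leaves minus panicles was -4.31 ± 0.59 for booting, all on the log2 scale.

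Of the other 3 probe sets of MT2B, one had differences of -2.44, -2.37 and -3.04 on the log2 scale in leaves from tillering to booting. Another had -2.64, -3.10 and -3.72. Both followed the brightest probe set in direction. In roots at tillering they had -0.96 and -0.81, against -0.64 for the brightest. They had -0.30 and -0.20 in roots at panicle elongation, against -0.15, and -0.51 and -0.43 in young panicles, against -0.37. Their type of probe can also bind related transcripts. The remaining probe set had group means of 4.43 to 27.1 only, which is near the low end of the scale.

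**Figure D1:**
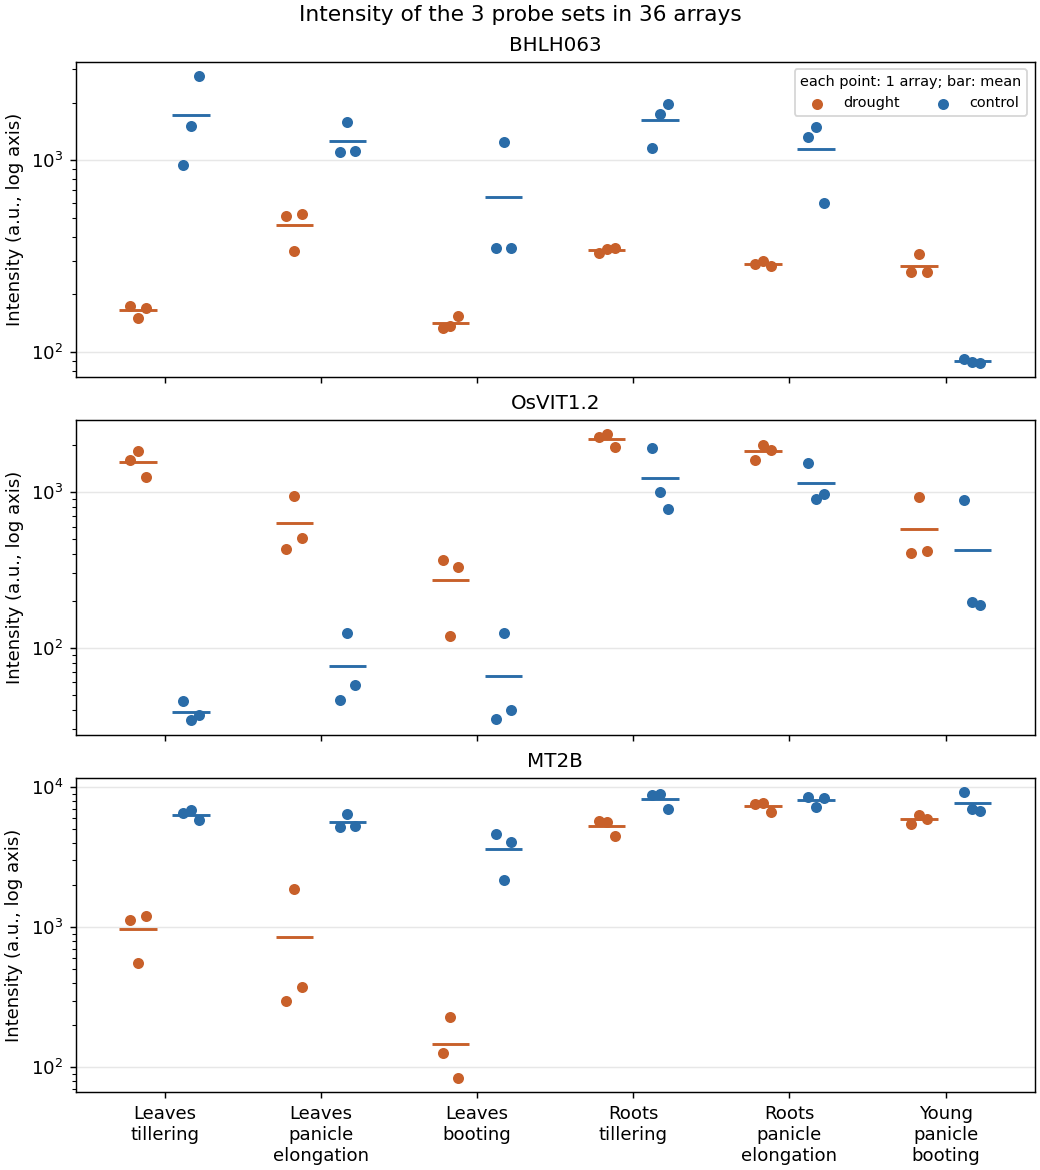
Intensity of BHLH063, OsVIT1.2 and MT2B (arbitrary units, log axis) in each of 36 arrays, with drought left of control in each tissue and stage; points are arrays and bars are group means. BHLH063 in control young panicles sits between 88.3 and 91.9, below every other array of that probe set, and the drought leaves reach at most 1889 in MT2B while every other array reads 2175 or more.

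The counts over the 3 probe sets stood beside those of the whole array as follows. In leaves at tillering, 3 of 3 differed 5-fold or more, against 1.75% of all probe sets, and none overlapped, with OsVIT1.2 higher (21.5% of all probe sets were higher without overlap) and the others lower (30.8%). In leaves at panicle elongation OsVIT1.2 and MT2B differed 5-fold or more, against 6.18% of all probe sets, and none overlapped (20.6% higher and 30.6% lower over the array). In leaves at booting MT2B alone passed 5-fold, against 1.9%, and BHLH063 and MT2B were lower without overlap, against 31.5%, while none was higher without overlap, against 19.3%. None of the 3 reached 5-fold in roots at tillering (2.11% of all probe sets), roots at panicle elongation (2.1%) or young panicles (1.65%). In roots at tillering OsVIT1.2 was higher without overlap (20.6% of all) and the others lower (24.1%), and in roots at panicle elongation OsVIT1.2 was higher (18.3%) and BHLH063 lower (21.4%). In young panicles BHLH063 was higher (21%) and MT2B lower (26.7%) without overlap, while OsVIT1.2 overlapped. As the probe sets were chosen on these values, the shares are a background only.

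**Figure D2:**
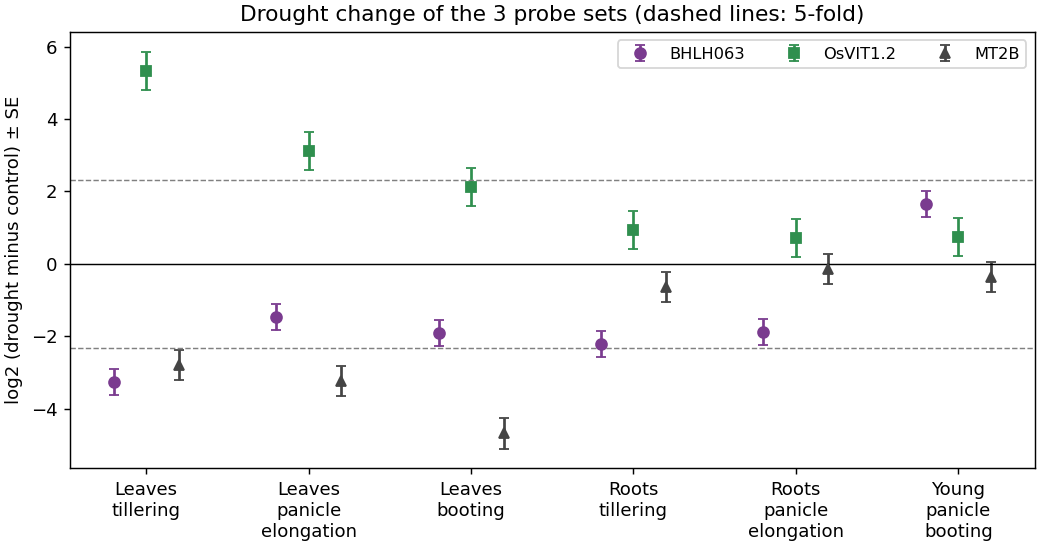
Log2 intensity of drought minus control for BHLH063, OsVIT1.2 and MT2B in 6 tissues and stages, with the SE of the limma model as bars and dashed lines at 5-fold. BHLH063 changes sign between leaves at booting (-1.92) and young panicles (1.65), and OsVIT1.2 lies above 0 throughout.

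Ranked by mean log2 intensity over the 12 groups, BHLH063 ran from control roots and control leaves at tillering, with means of 1621 ± 419 and 1736 ± 919 (SD, n = 3 arrays each), down to control young panicles with 89.6 ± 1.97. Of 11 pairs of neighbours in that order, 8 overlapped. The 3 gaps lay between drought roots at tillering and drought roots at panicle elongation, between drought panicles and drought leaves at tillering, and between drought leaves at booting and control panicles. OsVIT1.2 ran from drought roots at tillering with 2179 ± 209 to control leaves at tillering with 38.8 ± 5.76, and all 11 pairs of neighbours overlapped. MT2B ran from control roots at tillering with 8243 ± 1092 to drought leaves at booting with 146 ± 73.7. Its 2 gaps set drought leaves at tillering below control leaves at booting, and drought leaves at booting below those at panicle elongation, so all drought leaf groups lay below all other groups. The log2 group means of the 3 probe sets had Pearson r of -0.30 for BHLH063 and OsVIT1.2, 0.44 for BHLH063 and MT2B and 0.02 for OsVIT1.2 and MT2B, over 12 groups. The 3 probe sets were read on the same arrays.

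The 5 named genes with the most similar pattern were taken from 2624 probe sets by Pearson r over the 12 group means, as a description. These means hold both drought and control groups, so likeness in the drought changes follows in part from this choice. For BHLH063 they were OsCASPL1U2 (r = 0.92), the metal transporter NRAMP1 (0.88), the allantoate amidohydrolase AAH (0.87), BC1L9 (0.85) and the yellow stripe-like family member YSL12 (0.83). All 5 were below 0 in every leaf and root comparison, and in young panicles their log2 changes were between -0.33 and 0.67, against 1.65 for BHLH063. For OsVIT1.2 they were CERK (0.91), the beta-glucosidase BGLU9 (0.90), RIC2 (0.90), the cation exchanger CAX2 (0.89) and Osr40c1 (0.89), and their leaf changes of 0.90 to 2.44 were smaller than the change of OsVIT1.2 in the same leaves. For MT2B they were the beta-glucosidase BGLU12 (0.95), DAHPS2 (0.95), an enzyme at the entry of the shikimate pathway, pla2-II (0.90), a phospholipase, the potassium transporter HAK9 (0.89) and the vacuolar water channel TIP1-1 (0.89). Their leaf changes ran from -2.87 to -0.36.

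The other genes of iron and metal handling were read from lists of 45 measured genes, again chosen with earlier results known. Listed names that could not be matched to a gene or a probe set were not read, though the array may hold those genes. A gene counted as changed at a limma adjusted p under 0.05 and 5-fold or more. In leaves 2 of the 45 rose and 3 fell at tillering (all probe sets 0.639% and 1.11%), 3 rose and 8 fell at panicle elongation (2.62% and 3.55%), and 2 rose and 2 fell at booting (1.22% and 0.671%). In roots 1 rose and 8 fell at tillering (0.744% and 1.37%) and 2 rose and 5 fell at panicle elongation (1.12% and 0.966%). In young panicles 2 rose and 1 fell (0.648% and 0.995%). In at least 1 of the 6 comparisons 21 of the 45 passed, against 9.93% of all probe sets. The median log2 change of the 45 was -0.07, -0.05 and -0.17 in leaves from tillering to booting, -0.36 and -0.24 in roots and -0.01 in panicles, against -0.08, -0.09, -0.12, -0.03, -0.02 and -0.04 over all probe sets.

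Of 4 synthesis genes of nicotianamine and deoxymugineic acid, 3 fell in roots at both stages, where BHLH063 and the root markers LSI1 and LSI2 were lower too. Over all probe sets, 1.37% were called lower in roots at tillering and 0.966% at panicle elongation. The nicotianamine synthase NAS1 had 388, 441 and 272 in drought roots at tillering, against 6774, 8129 and 7412 in control roots, a limma log2 change of -4.37 ± 0.90 (adjusted p = 3.8e-04). At panicle elongation its change was -4.75 in roots (adjusted p = 1.4e-04) and -3.85 in leaves (6.6e-04). NAS2, a close copy whose probes may share signal with NAS1, changed by -3.93, -3.87 and -2.46 in the same comparisons. The NAS2 call in leaves was lost without control replicate 2 (-1.93) or drought replicate 1 (-2.27). NAAT1, the aminotransferase that follows nicotianamine on the way to deoxymugineic acid, fell in roots with log2 changes of -4.01 and -4.41 at tillering and panicle elongation (adjusted p = 5.6e-12 and 5.8e-13). In leaves at the same stages NAAT1 had log2 differences of -0.29 and -0.18 and did not pass. NAS3 passed 5-fold in no comparison, and in roots at tillering its log2 difference was -1.76. IDEF1 was the only other listed regulator that could be matched to a probe set by name. It passed 5-fold nowhere and ran between -1.12 and 0.62. Of 11 regulator names listed, 2 were read, and most of the others had no gene of that name in the gene table.

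Among the transporters, NRAMP1 fell in leaves at tillering and panicle elongation, with log2 changes of -4.29 and -4.66, and in roots at these stages, with -3.87 and -2.55 (limma adjusted p up to 8.7e-04). Its control leaves at booting read 120.0, 1029 and 152, so replicate 2, in which BHLH063 also stood out, was the highest here too. The NRAMP1 change in leaves at tillering ran from -4.99 (without control replicate 1) to -3.74 over left-out arrays. IRT1, the ferrous iron transporter, fell by 2.34 in leaves at tillering and by 2.70 at panicle elongation. In roots its log2 difference was -2.00 at both stages, short of 5-fold. The IRT1 call in leaves at tillering was lost without control replicate 3 (-1.99), drought replicate 2 (-2.19) or drought replicate 3 (-2.30). The NRAMP1 call in roots at panicle elongation was lost without control replicate 2 (-2.22). YSL15, which carries iron bound to deoxymugineic acid into roots, fell by 2.80 in roots at tillering (limma adjusted p = 3.6e-06). In roots at panicle elongation its log2 difference of -1.92 was short of 5-fold. YSL9 fell in roots at both stages (-3.08 and -2.59), YSL16 in leaves at panicle elongation (-2.77) and NRAMP5, a manganese transporter of rice roots, in young panicles (-3.98). Short of 5-fold, NRAMP5 also had -1.94 in roots at both stages and -1.70 in leaves at tillering.

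**Figure D3:**
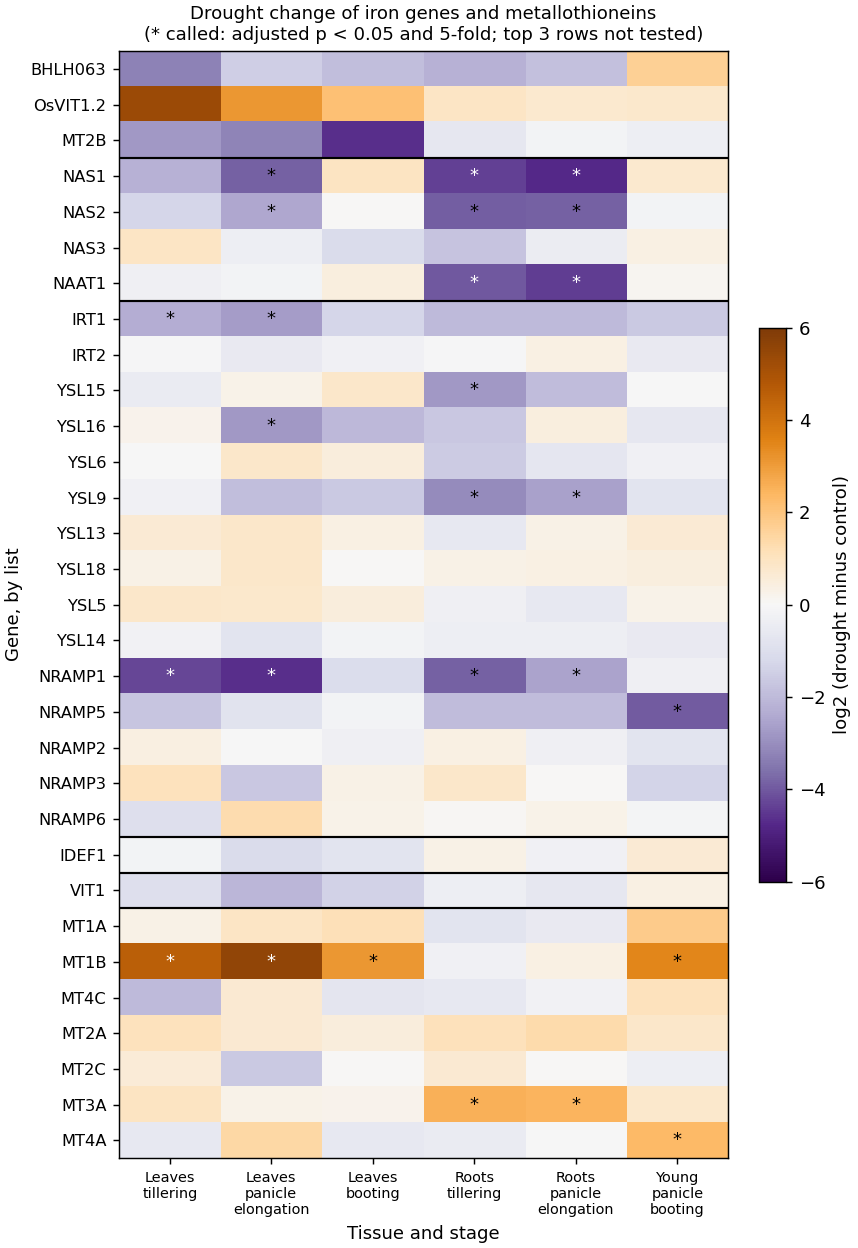
Log2 intensity of drought minus control for BHLH063, OsVIT1.2 and MT2B (top rows, not tested) and for the other iron genes and metallothioneins by list, in 6 tissues and stages; asterisks mark limma calls at 5-fold. The synthesis genes NAS1, NAS2 and NAAT1 are called lower in roots at both stages, and MT1B is called higher in all leaf groups and in young panicles.

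Of the 7 other metallothioneins, 0 fell 5-fold in any comparison and 3 rose 5-fold in at least 1 by limma's adjusted p, against 6.22% of all probe sets that fell and 3.92% that rose in at least 1 of the 6. No difference among them was 5-fold lower whatever its p, and 3 were lower in at least 1 comparison at an unadjusted limma p under 0.05, against 65% of all probe sets. MT1B had 5333, 6112 and 6138 in drought leaves at panicle elongation, against 101, 196 and 94.7 in control leaves, and rose by 5.57 ± 0.39 (limma adjusted p = 1.1e-12). It also rose by 4.58 in leaves at tillering, 3.12 in leaves at booting and 3.51 in young panicles, while in roots its log2 differences were -0.27 and 0.37 and did not pass. MT3A rose in roots by 2.55 and 2.46, and MT4A rose in young panicles by 2.32. The MT3A call was lost in roots at tillering without control replicate 3 (2.32) and at panicle elongation without control replicate 1 (2.29), and the MT4A call without control replicate 1 (2.19) or drought replicate 2 (1.97). MT2C came nearest to MT2B in leaves at panicle elongation, with -1.60 (limma adjusted p = 1.0e-08). In leaves at tillering and booting MT2C had 0.60 and 0.04. MT4C had -2.00, 0.69 and -0.73 in leaves from tillering to booting. It came nearest to MT2B in leaves at tillering and booting, and its -2.00 was the largest fall among the 7. MT1A and MT2A had log2 differences between -0.79 and 1.79 and between 0.51 and 1.32, and at booting a dimmer probe set of MT2A ran against the brightest in leaves with -0.37.

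**Figure D4:**
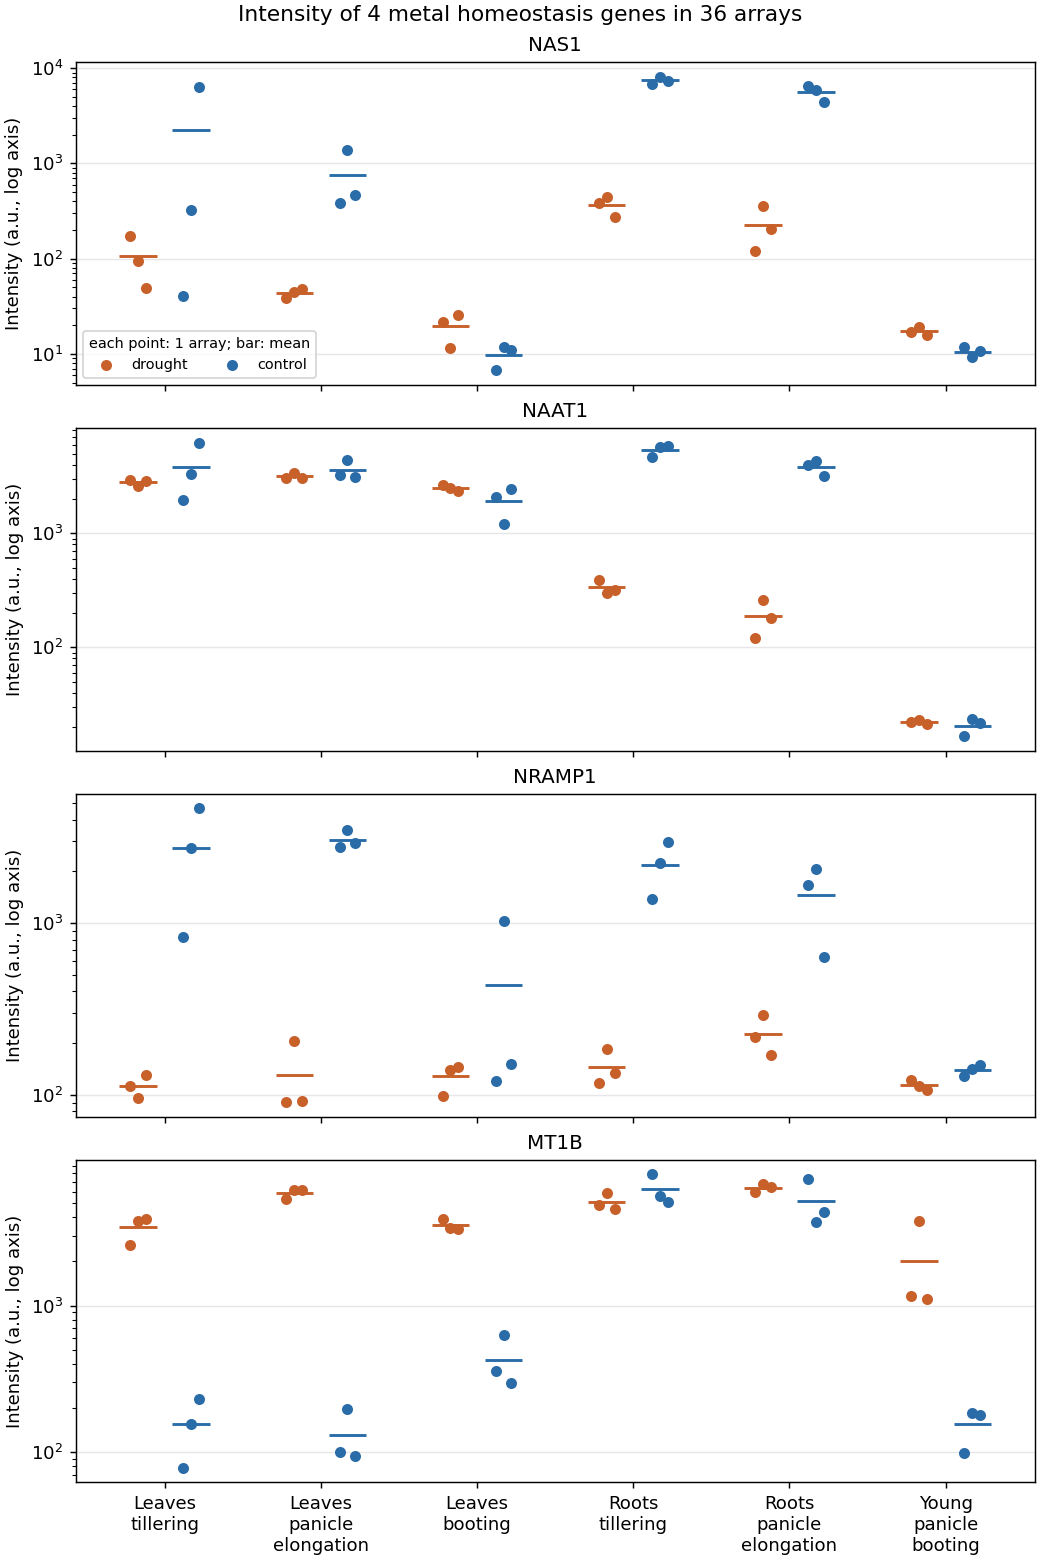
Intensity of NAS1, NAAT1, NRAMP1 and MT1B (arbitrary units, log axis) in each of 36 arrays, with drought left of control; points are arrays and bars are group means. Drought roots are below all control roots in NAS1, NAAT1 and NRAMP1, and drought leaves are above all control leaves of their stage in MT1B.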

How the data were processed

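RNA of 36 samples of DK151 was hybridised to Affymetrix rice arrays. The authors made CEL files with GCOS, applied dChip's invariant-set normalization and deposited 1 linear intensity per probe set and array; versions are not given in the sources used here. Samples were grouped by their titles. Intensities below 1 were raised to 1, log2 was taken and 123 control probe sets were left out, leaving 57258. One limma 3.58.1 model in R 4.3.3 held a mean for each of 12 groups (24 residual and 3.76 prior degrees of freedom), with Benjamini-Hochberg adjustment over all probe sets of a comparison, and was tested on simulated data. A call needed an adjusted p under 0.05 and 5-fold. A gene with several probe sets was read from the brightest. The members and lists were chosen with earlier results of these data known; named were the members, all matched iron, synthesis, storage and metallothionein genes, called genes of other lists, and 5 similar genes per member. Names came from RefSeq (assembly ASM3414082v1) and the array's annotation, under which 22436 probe sets match 1 gene. The methods' t-test, other scalings, floors, replicate blocks and left-out arrays were tried as alternatives. Sequences were not analysed here. The number of arrays limits the precision.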

Additional observations from a re-analysis of the deposited data

Results flagged for a closer look

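The drought change of BHLH063 in leaves at booting and in young panicles had opposite signs in all arrays, and the changes differed by -3.57 on the log2 scale (leaves minus panicles). This difference was not tested, because the probe set was chosen with these values known.

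Several listed genes changed differently in 2 tissues of a stage, by limma's test of the difference adjusted over all probe sets. The labels do not say whether the 2 tissues came from the same plants, and the model took all arrays as independent. At tillering the log2 change in leaves minus that in roots was 2.68 for NAS3 (adjusted p = 0.0041), 3.72 for NAAT1 (3.8e-08), 2.83 for YSL9 (6.2e-05) and 4.84 for MT1B (1.1e-07). The copper transporter COPT2 differed by 4.55 (2.8e-10), and the zinc transporters ZIP4 and ZIP5 by -3.00 (4.4e-08) and -3.26 (6.4e-06).

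At panicle elongation leaves minus roots was 4.23 for NAAT1 (limma adjusted p = 1.6e-09), -3.23 for YSL16 (8.8e-09), 5.20 for MT1B (1.5e-08), -2.68 for ZIP4 (1.4e-07) and -3.73 for ZIP8 (9.5e-09). The same difference was 3.27 for HMA4 (5.7e-11), -3.95 for MTP3 (9.3e-14) and 3.91 for MTP7 (3.6e-10). At booting leaves minus panicles was 3.81 for NRAMP5 (1.2e-10), -2.92 for MT4A (5.8e-06) and -3.25 for MTP4 (5.6e-07).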

How the results depend on the processing

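The drought changes of BHLH063, OsVIT1.2 and MT2B kept their direction under every alternative tried. BHLH063 in leaves at panicle elongation was -1.12 as a difference of medians, and MT2B in roots at panicle elongation was -0.27 after quantile normalization, each more than 1 SD from the value given. BHLH063 in roots at tillering ran from -2.44 to -2.06 (lowest without control replicate 1) and OsVIT1.2 in leaves at booting from 1.78 to 2.70 over left-out arrays, on both sides of 5-fold. The replicate number was also used as a replicate block within each tissue and stage. As every group holds replicates 1 to 3, this block cannot change a log2 difference and can alter only its SE and p. With it the counts of listed genes were unchanged. They were 2 higher and 3 lower in tillering leaves, 3 and 8 in panicle elongation leaves, and 2 and 2 in booting leaves. In roots they were 1 and 8 at tillering and 2 and 5 at panicle elongation, and in panicles 2 and 1. Over all probe sets, the deviations of same-numbered arrays correlated with r from 0.08 to 0.42 at tillering and from -0.17 to 0.09 elsewhere. Over the brighter 28629 probe sets r was 0.19 to 0.56 in leaves and 0.15 to 0.54 in roots at tillering, over 0.1 in every pair of these comparisons alone, and -0.25 to 0.14 elsewhere. Over these, 5 of 6 arrays correlated best with their own number in leaves and 4 of 6 in roots at tillering, 6 of 6 in leaves at booting, 2 of 6 in roots at panicle elongation and 0 in the others, which is a hint from the data and not from the labels. At a 2-fold minimum 5 listed genes were higher and 10 lower in tillering leaves, 7 and 15 in panicle elongation leaves, 4 and 10 in booting leaves, 4 and 15 in tillering roots, 6 and 10 in panicle elongation roots and 6 and 5 in panicles, while the share of all probe sets called in this order was 13.7%, 22.3%, 11.8%, 10.4%, 10.2% and 10.3%. Leaving out 1 array gave 2 to 6 lower genes in leaves at tillering (6 without control replicate 1), 1 to 2 higher in leaves at booting (1 without drought replicate 1), 0 to 1 higher in roots at tillering (0 without control replicate 3), 1 to 2 higher in roots at panicle elongation (1 without control replicate 1) and 1 to 2 higher in panicles (1 without control replicate 1 or drought replicate 2). The IRT1 calls were lost with the floor at the 25th percentile (-1.99 in leaves at tillering, -1.92 at panicle elongation). Quantile normalization ended the calls of IRT1 in leaves at tillering (-2.21), NAS2 and MTP3 in leaves at panicle elongation (-2.21 and -2.04) and COPT1 in roots at tillering (-2.22), and median centring those of IRT1, MTP3 and COPT1 (-2.19, -2.19 and -2.29). Of the 5 most similar genes, Spearman rho over group means kept 2 for BHLH063, 2 for OsVIT1.2 and 0 for MT2B, and Pearson r over 36 arrays kept 3 for each.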

Other observations

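Of 17 measured zinc, copper and other metal transporters, 9 passed limma's adjusted p and 5-fold in at least 1 comparison, against 9.93% of all probe sets. HMA4, a copper pump of the vacuole in rice, had 1133 ± 168 in drought leaves at panicle elongation and 122 ± 1.08 in control leaves (SD, n = 3 arrays each), a log2 change of 3.20 (limma adjusted p = 1.4e-14). MTP7, of the cation diffusion facilitator family, rose by 4.03 in the same leaves and by 2.57 in leaves at booting. MTP4, of the same family, fell in all leaf groups, with log2 changes of -2.71, -3.48 and -3.49 from tillering to booting. A dimmer probe set of MTP4 had log2 differences of -0.28, -0.48 and -0.59. COPT2 rose by 3.32 in leaves at tillering and fell by 2.61 in leaves at booting. In roots ZIP4 rose by 2.88 at panicle elongation, and HMA5, which loads copper into the xylem, and COPT1 fell at tillering, with -2.90 and -2.35. ZIP8 and MTP3 fell in leaves at panicle elongation with -2.81 and -2.32. Calls were lost on leaving out 1 array for MTP7 in leaves at booting without drought replicate 1 (2.20), for MTP3 without control replicate 2 (-2.13), drought replicate 1 (-2.24) or drought replicate 3 (-2.31), and for COPT1 without control replicate 1 (-2.29), drought replicate 1 (-2.29) or drought replicate 2 (-2.32).

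In control leaves at tillering the arrays differed among themselves in several iron genes at once. Replicate 3 was the highest array for BHLH063 at 2744, NRAMP1 at 4658, NAAT1 at 6258 and NAS1 at 6310, and replicate 1 was the lowest, at 945, 825, 1949 and 40.9 for the same genes.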
